A study of Mus musculus with 6 samples.

Results

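The gelsolin and villin family of actin-binding proteins was examined through 7 genes, chosen by symbol: Avil, Vil1, Gsn, Scin, Capg, Flii and Svil. All 7 were among the 23197 genes listed, and 5 of them had enough reads to be tested among 13234 genes. Avil was proposed as the member that rises in the comparison of libraries labelled siArid3a with control libraries. The values of that comparison therefore chose the family, and they are given below as a description. Calls and counts among the members are no test of them. RNA came from mouse primary vascular smooth muscle cells of a commercial supplier, the contractile cells of the artery wall. One group of 3 libraries is labelled as treated with siRNA against Arid3a, a transcription factor that binds AT-rich DNA, and was collected with 24 h of incubation after transfection. The other group of 3 libraries is labelled negative control, under the same protocol. The siRNAs are numbered 1 to 3 without saying whether they differ in sequence, and no separate cultures are named, so the spread between libraries may be technical. Angiotensin II appears in the growth protocol, and whether any of these libraries had it is not stated.

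Proteins of this family share a gelsolin-like domain that binds actin, present in several copies, and most respond to calcium. Gelsolin, scinderin, villin and advillin cut actin filaments and then cap the fast-growing end, which speeds the turnover of the filament network. Capg caps filaments without cutting them, and flightless 1 and supervillin carry gelsolin-like domains joined to other parts that bind signalling or motor proteins, so not every member is a severing protein. Smooth muscle contraction and migration both depend on actin turnover, and gelsolin is a widespread cytoplasmic and plasma protein. Villin is best known from the microvilli of the gut, advillin from sensory neurons and tuft cells, and scinderin from secretory cells.

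Total counts were 17029735 to 22799935 per library. The siRNA target itself, Arid3a, did not differ between the labels. Its reads numbered 380, 367 and 376 in libraries 1, 2 and 3 labelled siArid3a, against 375, 370 and 391 reads in control libraries 1, 2 and 3. The level was 19.3 ± 2.49 CPM in the libraries labelled siArid3a and 19.6 ± 2.94 CPM in the controls (SD, n = 3 each; CPM is the count scaled to the library total after TMM correction). On the log2 scale the fold change was -0.03, with SE 0.13 and an edgeR adjusted p of 0.943. Each direction below is thus that of the libraries labelled siArid3a and not of a measured loss of Arid3a. Smooth muscle markers were unevenly present. Acta2, smooth muscle actin, stood at 553.9 ± 82.7 CPM in the libraries labelled siArid3a and 540.7 ± 53.7 CPM in the controls, and the calponin gene Cnn1 at 30.1 ± 5.38 CPM in the libraries labelled siArid3a and 30.2 ± 2.72 CPM in the controls (SD, n = 3 each). Myh11, smooth muscle myosin, had 30 reads over all 6 libraries. Tagln had 158, and whether a span shared with another gene limits its count was not tested.

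The sequences around 3 transcription starts are shown because they belong to the member that differs (Avil), its closest relative, which is near 0 here (Vil1), and the most abundant member (Gsn, the first of its 3 annotated starts). Each window runs from 250 bases before to 50 bases after the start, 5′ to 3′ on the plus strand, as RefSeq gives it on GRCm38.p6. Capitals mark, on either strand, a CCAAT run, a GC-rich GGGCGG run, a TATAAA run, the AT-rich run ATTAAA or a CArG box, the element bound by serum response factor in smooth muscle genes.
Avil, chr10:127000459-127000758: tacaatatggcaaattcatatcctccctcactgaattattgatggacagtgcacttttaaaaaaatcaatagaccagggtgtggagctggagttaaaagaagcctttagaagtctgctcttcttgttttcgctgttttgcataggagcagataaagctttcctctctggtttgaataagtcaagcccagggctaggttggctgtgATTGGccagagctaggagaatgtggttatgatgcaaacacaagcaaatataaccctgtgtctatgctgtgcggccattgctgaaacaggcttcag
Vil1, chr1:74409134-74409433: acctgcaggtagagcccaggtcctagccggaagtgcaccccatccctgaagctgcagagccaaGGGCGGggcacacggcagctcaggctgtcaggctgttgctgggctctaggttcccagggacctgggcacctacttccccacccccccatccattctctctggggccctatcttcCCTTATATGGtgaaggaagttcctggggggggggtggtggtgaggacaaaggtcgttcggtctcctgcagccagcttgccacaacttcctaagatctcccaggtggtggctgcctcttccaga
Gsn, chr2:35256109-35256408: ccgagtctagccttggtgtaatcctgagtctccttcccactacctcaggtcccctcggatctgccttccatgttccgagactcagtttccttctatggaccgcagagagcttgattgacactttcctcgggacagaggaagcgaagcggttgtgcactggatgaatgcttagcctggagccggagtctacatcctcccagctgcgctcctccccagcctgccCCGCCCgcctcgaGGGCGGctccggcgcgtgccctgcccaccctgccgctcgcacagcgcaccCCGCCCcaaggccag

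The Avil window was poor in G and C. Its GC content was 43.0%, and 16.5% of the 32851 mouse windows of this length had a lower one. The GC content was 61.7% for Vil1 and 63.7% for this Gsn start, and 70.0% for Flii, whose window was above 90.4% of all windows. The Avil window held 1 CCAAT and 0 copies of GGGCGG, a letter run found in 35.7% of all windows, while CCAAT was found in 37.4%. The Gsn window held 3 copies of GGGCGG and the Vil1 window 1. The Vil1 window also held a CArG box, found in 1.63% of all windows, and no such box was found in the windows of Avil, Gsn, Scin, Capg or Flii. TATAAA (13.6% of all windows) and ATTAAA, an AT-rich run (13.9%), were in 0 of the 8 windows of these 6 genes. Such matches describe the letters of these windows alone.

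Avil, which encodes advillin (ENSMUSG00000025432, mm10 chromosome 10, 127000709 to 127020994, plus strand), was the member with the largest log2 fold change among the 5 tested. It had 544, 434 and 647 reads in libraries 1, 2 and 3 labelled siArid3a, against 218, 283 and 290 reads in control libraries 1, 2 and 3. After scaling the levels were 23.7, 25.4 and 34.0 CPM in the libraries labelled siArid3a, against 11.3, 12.8 and 16.8 CPM in the controls. Every library labelled siArid3a lay above every control, and library 3 was the highest within each group. The means were 27.7 ± 5.52 CPM in the libraries labelled siArid3a and 13.7 ± 2.82 CPM in the controls (SD, n = 3 each), a log2 fold change of 1.02 (SE 0.16) with a 95% interval from 0.69 to 1.36. Its spread within a group was wide, with a coefficient of variation of 19.9% in the libraries labelled siArid3a and 20.6% in the controls. In the other 4 tested members the coefficient was 4.36% to 9.72% in the libraries labelled siArid3a and 1.54% to 7.66% in the controls. With each library left out in turn, the log2 fold change of Avil was 0.85 to 1.19, lowest without library 3 labelled siArid3a.

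**Figure D1:**
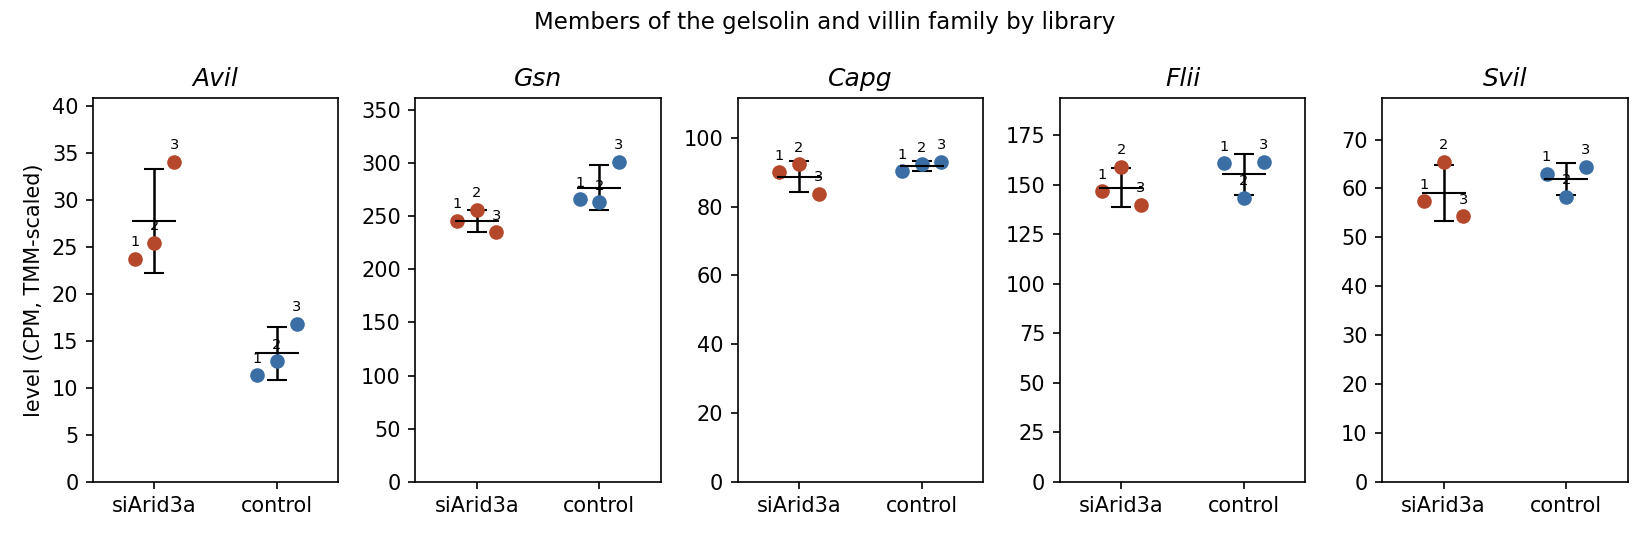
Level of the 5 tested members in each library (CPM after TMM scaling, axes from 0), for the libraries labelled siArid3a and the controls. Points are single libraries with their number, bars the mean with its SD (n = 3 each). Avil lies at 23.7 to 34.0 CPM in the libraries labelled siArid3a and at 11.3 to 16.8 CPM in the controls, while the groups overlap in Capg, Flii and Svil.

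Gsn, which encodes gelsolin (ENSMUSG00000026879, chromosome 2, 35256380 to 35307892, plus strand), was the most abundant member per length of exon and lay on the other side. Its levels were 245.5, 256.0 and 234.6 CPM in libraries 1, 2 and 3 labelled siArid3a, against 265.5, 262.8 and 300.7 CPM in control libraries 1, 2 and 3. The groups did not overlap, with every library labelled siArid3a below every control, but the gap between the closest libraries, 256.0 and 262.8 CPM, was small. The means were 245.4 ± 10.7 CPM in the libraries labelled siArid3a and 276.3 ± 21.2 CPM in the controls (SD, n = 3 each), and the log2 fold change was -0.17 (SE 0.08). Without control library 3, the highest, it was -0.11. Both Avil and Gsn cut and cap filaments in the cell, and their values stood in opposite directions.

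Capg (ENSMUSG00000056737, chromosome 6, 72544391 to 72562983, plus strand), the capping protein of the family, was nearly level. It had 90.0, 92.3 and 83.7 CPM in libraries 1, 2 and 3 labelled siArid3a, against 90.2, 92.2 and 92.9 CPM in control libraries 1, 2 and 3. The groups overlapped, and only library 3 labelled siArid3a fell below the control range by more than 1 CPM. The log2 fold change was -0.05 (SE 0.08), with a 95% interval from -0.21 to 0.11.

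Flii (ENSMUSG00000002812, chromosome 11, 60714123 to 60727263, minus strand), which encodes flightless 1, a gelsolin-like protein with leucine-rich repeats, had 146.6, 159.1 and 139.9 CPM in libraries 1, 2 and 3 labelled siArid3a. In control libraries 1, 2 and 3 it had 160.8, 143.4 and 161.5 CPM. The groups overlapped, and the log2 fold change was -0.06 (SE 0.08), with a 95% interval from -0.23 to 0.11. Svil (ENSMUSG00000024236, chromosome 18, 4920540 to 5119299, plus strand), which encodes supervillin, a membrane-associated partner of actin and myosin, had 57.4, 65.4 and 54.3 CPM in libraries 1, 2 and 3 labelled siArid3a. In control libraries 1, 2 and 3 it had 63.0, 58.3 and 64.4 CPM. These groups overlapped too, with a log2 fold change of -0.07 (SE 0.09) and a 95% interval from -0.26 to 0.12. In Gsn, Capg, Flii and Svil alike, library 3 labelled siArid3a had the lowest level of all 6 libraries, while in Avil it had the highest.

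Vil1 and Scin were close to 0 and were not tested. Vil1 (ENSMUSG00000026175, chromosome 1, 74409376 to 74435559, plus strand), which encodes villin, had 0, 0 and 2 reads in libraries 1, 2 and 3 labelled siArid3a, against 2, 5 and 1 reads in control libraries 1, 2 and 3. Scin (ENSMUSG00000002565, chromosome 12, 40059769 to 40134228, minus strand), which encodes scinderin, had 0, 0 and 4 reads in libraries 1, 2 and 3 labelled siArid3a, against 1, 3 and 1 reads in control libraries 1, 2 and 3. A count of 0 allows up to 3 reads per library, counting error only, so a difference in either gene was not detectable at this depth. Of the 4 members that encode filament-cutting proteins, Gsn and Avil were thus the ones with more than 200 reads in every library.

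Over the 5 tested members, edgeR called 0 at an adjusted p under 0.05, where it called 0% of all 13234 genes. At an unadjusted p under 0.05 there was 1 member with a higher value (7.36% of all genes tested) and 1 with a lower value (7.57%). limma-voom called 0 members (0% of all genes tested) and DESeq2 called 1 (1.69%), which was Avil. edgeR also called Avil without a filter on low counts, where it called 439 of 23197 genes. It called Avil without control library 2 (135 of 13496 genes called), control library 3 (94 of 13542) or library 2 labelled siArid3a (37 of 13530). Under the other settings tried, no member was called. Avil was the 1 tested member with all libraries labelled siArid3a above all controls, a pattern found in 9.66% of all genes tested. Gsn was the 1 with all below, found in 10.4%. Since this comparison chose the family, these calls and counts are no test of it, and nothing is read from them. The median log2 fold change was -0.06 over the 5 tested members and -0.01 over all genes tested.

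**Figure D2:**
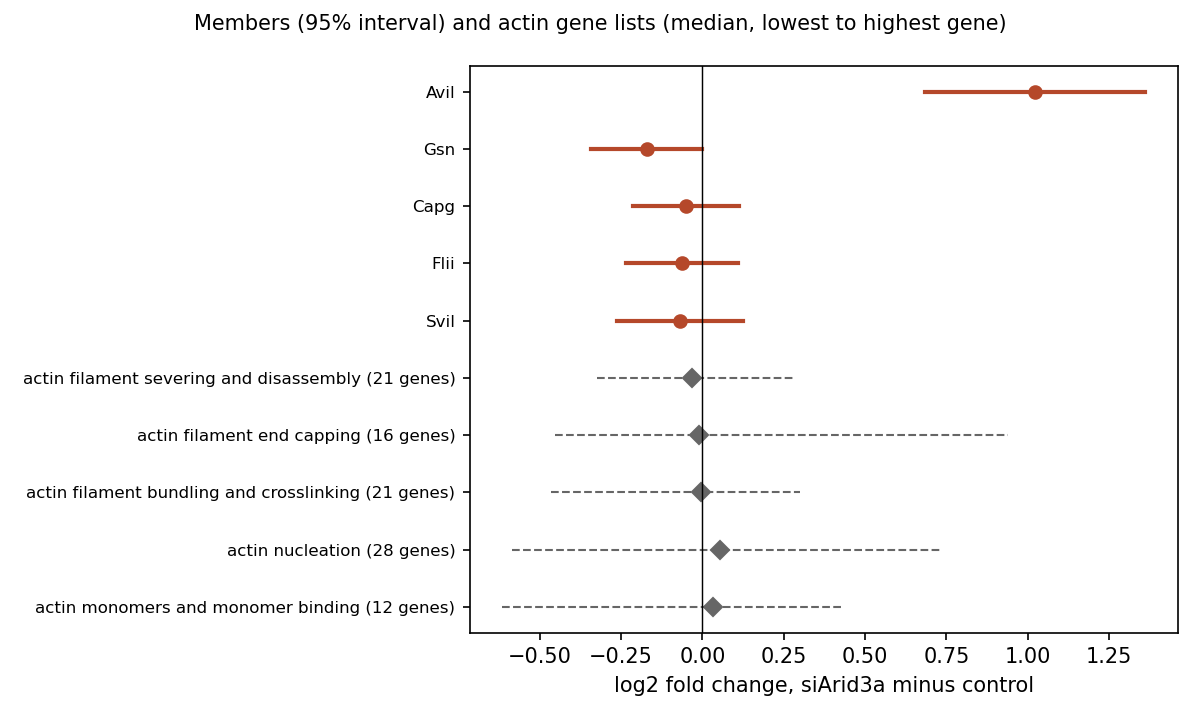
Log2 fold change of the libraries labelled siArid3a minus the controls. Circles are the 5 tested members with their 95% intervals, and diamonds are medians of 5 lists of other actin genes with dashed lines from the lowest to the highest gene. Avil stands at 1.02, the other members lie between -0.17 and -0.05, and the list medians lie between -0.03 and 0.05.

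Ratios of reads within a library do not depend on how libraries are scaled. Per 100 Gsn reads there were 9.66, 9.92 and 14.5 Avil reads in libraries 1, 2 and 3 labelled siArid3a, against 4.28, 4.88 and 5.58 in control libraries 1, 2 and 3. The ratio of Avil to Gsn reads did not overlap between the groups. Per 100 Capg reads the mean was 31.5 ± 7.94 Avil reads in the libraries labelled siArid3a and 14.9 ± 2.86 in the controls (SD, n = 3 each). Per 100 Flii reads it was 18.8 ± 4.76 in the libraries labelled siArid3a and 8.80 ± 1.68 in the controls. Per 100 Svil reads it was 47.6 ± 13.1 in the libraries labelled siArid3a and 22.0 ± 4.04 in the controls. In each of the 4 ratios, every library labelled siArid3a lay above every control. Avil itself was chosen for this rise, so the ratios describe it and lend it no further weight.

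**Figure D3:**
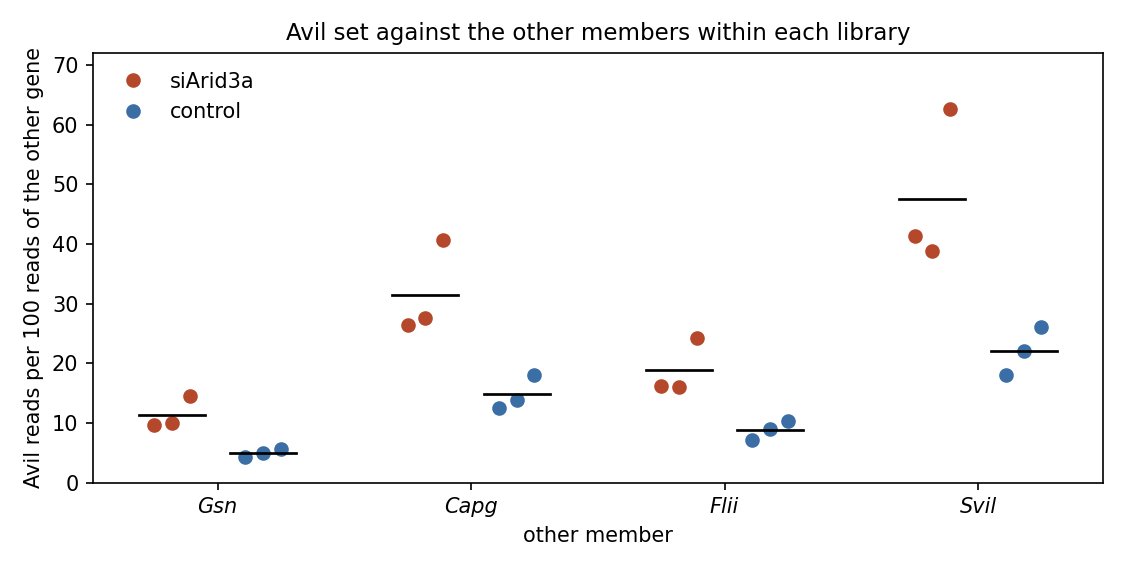
Avil reads per 100 reads of Gsn, Capg, Flii or Svil in the same library (axis from 0). Points are single libraries labelled siArid3a or control in the order 1 to 3, and black lines are group means. The ratio to Gsn is 9.66 to 14.5 in the libraries labelled siArid3a and 4.28 to 5.58 in the controls.

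The order of the members by level was taken from CPM per kilobase of annotated exon. The choice of the family did not use the order within the controls. Any change in the place of Avil between the groups follows from the rise for which it was chosen. Gsn led with 77.7 ± 3.39 CPM per kilobase in the libraries labelled siArid3a and 87.5 ± 6.71 in the controls (SD, n = 3 each), above 95.3% of 13221 tested genes in the libraries labelled siArid3a and 96.1% in the controls. Capg followed at 35.1 ± 1.78 CPM per kilobase in the libraries labelled siArid3a and 36.3 ± 0.558 in the controls. Flii stood at 29.5 ± 1.94 CPM per kilobase in the libraries labelled siArid3a and 30.8 ± 2.03 in the controls. Per kilobase of exon the order was Gsn, Capg and Flii in every library, and the highest Flii library, at 32.0 CPM per kilobase, lay below the lowest Capg library, at 33.1. By the deposited length, the gene span, Flii came first instead, at 11.3 CPM per kilobase in the libraries labelled siArid3a and 11.8 in the controls. Svil and Avil were much lower. Svil had 5.52 ± 0.536 CPM per kilobase in the libraries labelled siArid3a and 5.79 ± 0.300 in the controls. Avil had 8.15 ± 1.62 CPM per kilobase in the libraries labelled siArid3a and 4.02 ± 0.828 in the controls (SD, n = 3 each). Avil stood above 58.4% of tested genes in the libraries labelled siArid3a and above 41.2% in the controls.

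Avil took 5.25 ± 1.22% of the summed level per kilobase of the family in the libraries labelled siArid3a and 2.43 ± 0.375% in the controls. Gsn took 49.8 ± 0.404% in the libraries labelled siArid3a and 53.2 ± 1.12% in the controls (SD, n = 3 each). The summed level of all 7 members was 156.0 ± 6.29 CPM per kilobase in the libraries labelled siArid3a and 164.5 ± 9.30 in the controls, with groups that overlapped. The difference of the means was 4.13 CPM per kilobase for Avil and -9.81 for Gsn. Svil and Avil changed places: Avil lay above Svil in all 3 libraries labelled siArid3a and below it in all 3 controls. That exchange and the larger share of Avil restate the rise for which it was chosen and lend it no further weight. The exchange also depended on the length used. With only the exon bases outside other genes, chosen after seeing the data, Avil had 13.9 ± 2.76 CPM per kilobase in the libraries labelled siArid3a and 6.84 ± 1.41 in the controls, with both means above those of Svil. In control library 1 alone, Avil was then below Svil, at 5.68 against 5.89.

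**Figure D4:**
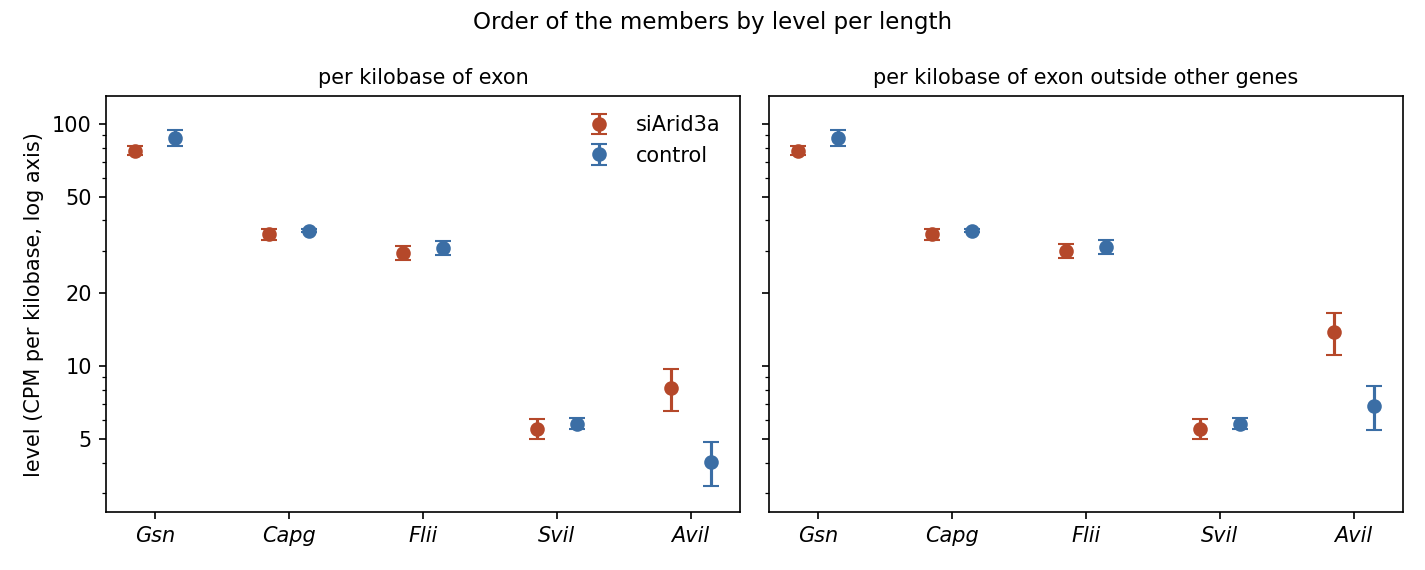
Level of the 5 tested members per kilobase of exon (left) and per kilobase of exon outside other genes (right), as the mean and SD of 3 libraries labelled siArid3a and 3 controls, on a log axis. Gsn leads in both panels, at 77.7 CPM per kilobase in the libraries labelled siArid3a and 87.5 in the controls, and the mean of Avil stands below Svil in the controls of the left panel and above it in the right panel.

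The place of Avil in the genome limits what its count holds. Of its 20 exon blocks, 7 lie partly or wholly under Tsfm, a gene for a mitochondrial translation elongation factor on the opposite strand, which covers 46.5% of the Avil span. Outside the spans of other genes lie 1998 of the 3398 exonic bases of Avil, or 58.8%. The share was 98.6% for Vil1 and 98.7% for Flii, and 100.0% for Gsn, Scin, Capg and Svil. The deposited length of a gene is its whole span, introns included, in all 23197 rows. Among protein-coding genes of GENCODE M21 with all exonic bases under other genes, 13.8% of 1489 were listed, against 80.0% of 20462 others. The part of the Avil span before Tsfm holds 13 whole exon blocks. How reads in shared spans were counted is not stated and was not tested.

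Neither neighbour of Avil showed its difference. Tsfm had 54.5 ± 2.89 CPM in the libraries labelled siArid3a and 54.0 ± 2.98 CPM in the controls (SD, n = 3 each), a log2 fold change of 0.01 (SE 0.09, edgeR adjusted p = 0.963). Ctdsp2, a phosphatase gene on the same strand that ends 733 bases before the start of Avil, had 211.2 ± 19.1 CPM in the libraries labelled siArid3a and 234.6 ± 16.6 CPM in the controls, a log2 fold change of -0.15 (SE 0.09, edgeR adjusted p = 0.424). Eef1akmt3, the next listed gene on the far side of Tsfm, had 0.840 ± 0.405 CPM in the libraries labelled siArid3a and 1.10 ± 0.453 CPM in the controls (SD, n = 3 each). Among genes that share span with other members, Usp37 beside Vil1 had a log2 fold change of 0.23 (SE 0.09, edgeR adjusted p = 0.236) and Llgl1 beside Flii of 0.07 (SE 0.10, edgeR adjusted p = 0.777).

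**Figure D5:**
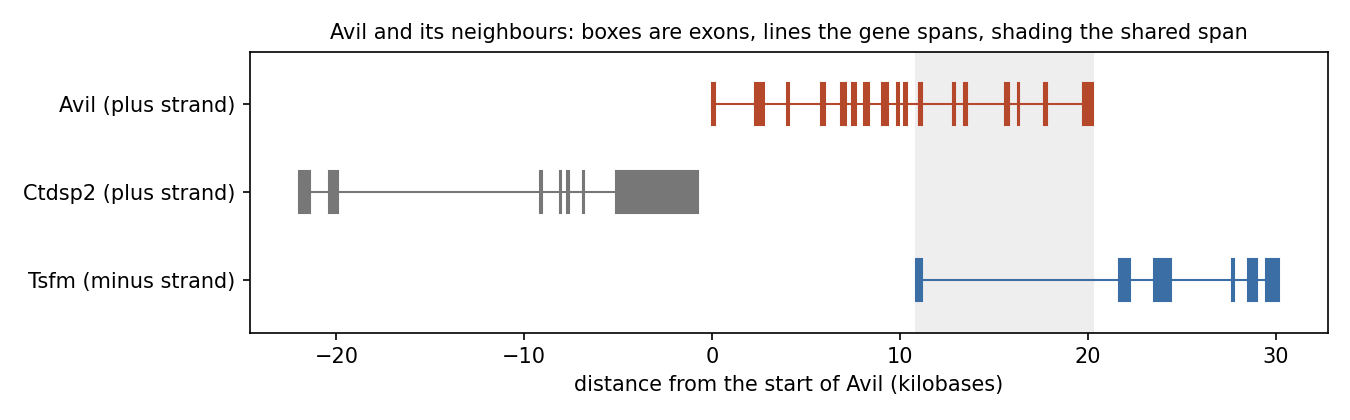
Avil and its neighbours by distance from the start of Avil in kilobases. Boxes are exons, lines are gene spans and the shading marks the span that Avil shares with Tsfm. Of the 20 exon blocks of Avil, 13 lie before the shaded part, and the end of Ctdsp2 is 733 bases away.

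Advillin is known from sensory neurons and tuft cells, villin from gut epithelium and Capg from macrophages as well, so the markers of these cells were read beside the members. Of 15 sensory neuron markers 10 were analysed. Their summed level was 165.2 to 168.2 CPM in the libraries labelled siArid3a, against 142.2 to 159.4 CPM in the controls, so it moved with Avil. Nearly all of it came from Runx1, at a mean of 90.0 CPM in the libraries labelled siArid3a and 76.1 CPM in the controls, and P2rx3, at 76.2 CPM in the libraries labelled siArid3a and 72.6 CPM in the controls. The defining genes Pou4f1 and Prph had 15 and 26 reads over all 6 libraries, and Scn10a and Trpv1 had 6 and 5. Of 12 tuft cell markers 10 were analysed, with a summed level of 36.3 to 40.4 CPM in the libraries labelled siArid3a and 33.4 to 43.2 CPM in the controls, and the defining factor Pou2f3 had 7 reads over all 6 libraries. Most of this sum came from Dclk1, at a mean of 25.5 CPM in the libraries labelled siArid3a and 26.9 CPM in the controls. Sh2d6, another tuft cell marker, moved with Avil, at 11.7 CPM in the libraries labelled siArid3a and 8.65 CPM in the controls. Its groups did not overlap, and 9.66% of all genes tested had every library labelled siArid3a above every control.

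Of the other lists, the sums for gut epithelium, macrophages and mesothelium lay lower, and those for endothelium, fibroblasts and smooth muscle overlapped. Gut epithelium markers, 12 of 13 analysed, summed to 35.8 to 40.8 CPM in the libraries labelled siArid3a and 49.5 to 54.9 CPM in the controls, with 1 read of Epcam and 4 of Cdx2 in all. Nearly all of the gut sum was Krt19, at 33.8 CPM in the libraries labelled siArid3a and 44.3 CPM in the controls, which is also a mesothelial marker, as are Krt8 and Krt18, so these sums are not separate. Macrophage markers, 11 of 12 analysed, summed to 42.4 to 57.7 CPM in the libraries labelled siArid3a and 61.8 to 73.3 CPM in the controls, mostly from Cd14, with 2 reads of Tyrobp and 5 of Adgre1 in all. Mesothelial markers, all 10 analysed, summed to 132.5 to 149.5 CPM in the libraries labelled siArid3a and 159.4 to 180.9 CPM in the controls. Endothelial markers, 9 of 10 analysed, summed to 16.7 to 25.3 CPM in the libraries labelled siArid3a and 20.6 to 30.5 CPM in the controls. Fibroblast markers, all 10 analysed, summed to 1528 to 1907 CPM in the libraries labelled siArid3a and 1702 to 2023 CPM in the controls. All 12 smooth muscle markers summed to 2527 to 3037 CPM in the libraries labelled siArid3a and 2423 to 2592 CPM in the controls. Within these overlapping sums, some genes did not overlap between the groups. Among all genes tested, 9.66% had every library labelled siArid3a above every control, and 10.4% had every one below. Kdr of the endothelial list had a mean of 0.912 CPM in the libraries labelled siArid3a and 0.253 CPM in the controls. Its reads numbered 3, 12 and 1 in control libraries 1, 2 and 3. Tek of the same list lay the other way, at 0.941 CPM in the libraries labelled siArid3a and 1.48 CPM in the controls. The fibroblast gene Dcn had 371.0 CPM in the libraries labelled siArid3a and 518.8 CPM in the controls, and the smooth muscle actin gene Actg2 had 161.8 CPM in the libraries labelled siArid3a and 120.2 CPM in the controls. The part of these lists in the values of the members was not tested, and in bulk RNA fewer cells of a type and less RNA per cell cannot be told apart.

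Other genes of actin turnover were read from 5 lists with 113 genes in all, of which 98 were tested. edgeR called 0 of them in either direction, as it called 0% of all genes. At an unadjusted p under 0.05 there were 10 with higher values in the libraries labelled siArid3a (7.36% of all genes tested) and 9 with lower values (7.57%). limma-voom called 0 (0% of all genes tested), and DESeq2 called 2, where it called 1.69% of all genes. Of the 98 genes, 50 had a log2 fold change above 0 and 48 below, with a median of 0.01. All libraries labelled siArid3a were above all controls in 11 of the 98 (9.66% of all genes tested) and below them in 13 (10.4% of all genes tested).

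Severing and disassembly genes of the cofilin pathway, which also take filaments apart, ranged in log2 fold change from -0.32 to 0.28, and their median over 21 tested genes was -0.03. The genes of this list with the highest CPM were Cap1, a recycler of actin monomers, at -0.06 (SE 0.08, edgeR adjusted p = 0.774), and Dstn, which encodes the severing protein destrin, at -0.09 (SE 0.09, edgeR adjusted p = 0.689). End-capping genes had a median of -0.01 over 16 tested genes. The genes of this list with the highest CPM, the capping protein subunit genes Capza2 and Capzb, stood at 0.23 (SE 0.10, edgeR adjusted p = 0.287) and -0.03 (SE 0.07, edgeR adjusted p = 0.877). Capza1, a further subunit gene, stood at 0.19 (SE 0.08, edgeR adjusted p = 0.250). The largest value of this list, 0.94 for Add2, belonged to a gene with a mean of 0.324 CPM in the controls and was named because of that value.

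Over 21 tested bundling and crosslinking genes the median log2 fold change was -0.01, with the filamin gene Flna at -0.01 (SE 0.09, edgeR adjusted p = 0.986). Nucleation genes had a median of 0.05 over 28 tested genes, with the Arp2/3 complex genes Arpc1b at -0.14 (SE 0.08, edgeR adjusted p = 0.401) and Actr3 at 0.11 (SE 0.08, edgeR adjusted p = 0.562). Actin and monomer-binding genes had a median of 0.03 over 12 tested genes, with Actb at 0.04 (SE 0.09, edgeR adjusted p = 0.862) and Actg1 at 0.05 (SE 0.09, edgeR adjusted p = 0.855). The DESeq2 calls were Wasl, an activator of Arp2/3, at 0.37 (SE 0.09, DESeq2 adjusted p = 0.0104), and Ablim1, an actin-binding LIM protein gene, at -0.34 (SE 0.10, DESeq2 adjusted p = 0.0341). These genes, too, were named after their values were seen, and edgeR gave them adjusted p of 0.100 and 0.114.

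The genes most like Avil over the 6 libraries, by Pearson's r of log2 CPM among all genes tested, were Fyb2, Syt6, Pacsin2, Wdr4 and Tbrg1, with r of 0.99 each. All libraries share the grouping, so any gene that differs between the groups can score high. Fyb2, an adaptor gene, had 9.94, 10.0 and 14.4 CPM in libraries 1, 2 and 3 labelled siArid3a, against 5.78, 5.80 and 7.59 CPM in control libraries 1, 2 and 3. Library 3 was highest within each group there as well. The size of the difference varied widely among these genes, from a log2 fold change of 0.07 for Tbrg1 and 0.09 for Pacsin2 to 0.25 for Wdr4, 0.63 for Syt6 and 0.85 for Fyb2. Among the genes most like Gsn were Kctd18 and Ezr (r of 1.00 and 0.99), and those most like Capg were Tada1, Mbp and Ptp4a1 (r of 0.99 each). Ezr encodes ezrin, a linker of actin to the membrane that is also in the bundling list, and had 194.4 ± 14.4 CPM in the libraries labelled siArid3a and 223.5 ± 20.3 CPM in the controls (SD, n = 3 each).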

How the data were processed

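For each of 6 libraries of polyA RNA the authors deposited raw read counts per gene. The submitters' processing notes name STAR 2.7.3a, featureCounts and mm10, and no source used here gives the annotation or the strand setting. Counts passed filterByExpr and TMM scaling and went into a robust quasi-likelihood fit of edgeR 4.0.16 (R 4.3.3) with group as its term. Benjamini-Hochberg adjustment covered all 13234 genes tested, with a threshold of 0.05. The SE of a log2 fold change is its size divided by the square root of F. CPM are counts relative to the TMM-scaled library total. Exon lengths and overlaps came from GENCODE M21 on GRCm38, the assembly of mm10, which held 23134 of the 23197 identifiers.

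Libraries of a group differed by more than sampling noise, with a chi-square per degree of freedom of 5.72 to 20.2. The members and lists were chosen with earlier results of these data known. Named genes are the members, Arid3a, genes that overlap a member or flank Avil, the 2 genes of highest CPM in each actin list, the genes with the highest r and 4 smooth muscle markers. Other marker genes, and any gene called out for its value, were chosen after their values were known. Some genes that this rule names are not reported here. Log2 CPM for r used a prior count of 2. The alternatives were 3 other scalings, DESeq2 1.42.0, limma-voom (limma 3.58.1), 2 other filters, a non-robust fit, a replicate block, other lengths and each library left out. The fits were tested on simulated data with known fold changes.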

Additional observations from a re-analysis of the deposited data

How the results depend on the processing

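Over the 9 refits that kept all libraries, the log2 fold change was 1.00 to 1.03 for Avil and -0.19 to -0.17 for Gsn. With each library left out it was 0.85 to 1.19 for Avil and -0.20 to -0.11 for Gsn. It was then -0.08 to -0.01 for Capg, -0.11 to -0.02 for Flii and -0.15 to -0.01 for Svil. Leaving out 1 of 3 libraries can hardly move a value by more than the spread between libraries. These ranges are therefore a description and no test of stability. The depth limits Vil1 and Scin, which were too low to test. The number of genes called over the whole table, 0 in the report, was 223 with DESeq2, 439 without a filter on low counts, and 0 to 135 with each library left out (135 without control library 2, 94 without control library 3 and 37 without library 2 labelled siArid3a). In the actin lists, where 0 were called, DESeq2 called 1 bundling and 1 nucleation gene, and edgeR without a filter called 2 bundling, 2 nucleation and 1 monomer-binding gene. With each library left out the count was 0 to 1 in the bundling list and 0 to 1 in the nucleation list. The cause of these differences was not tested. The log2 fold change of Arid3a was -0.13 to 0.0841 with each library left out, turning positive without control library 3 (0.0841) and without library 1 labelled siArid3a (0.0728). Same-numbered libraries did not deviate together over all genes tested (correlations of 0.03, -0.18 and -0.08). Whether they shared a culture or preparation is not stated, and these correlations cannot decide it. With a replicate block 0 genes were called and the log2 fold change of Avil was 1.02. Its SE was then 0.12, against 0.16 without the block.

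Levels per kilobase change with the length by construction. Per kilobase of the deposited length, which is the gene span, they were 1.37, 4.76, 4.77, 11.3 and 0.297 CPM in the libraries labelled siArid3a for Avil, Gsn, Capg, Flii and Svil, and 0.673, 5.36, 4.94, 11.8 and 0.311 CPM in the controls for the same genes, so that Flii led. With exon bases outside other genes, chosen after seeing the data, Avil had 13.9 CPM per kilobase in the libraries labelled siArid3a and 6.84 in the controls.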

Other observations

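A further gene of villin type, Vill, is not among the 7 members and was looked up after the others had been seen. It had 25.4, 26.2 and 20.9 CPM in libraries 1, 2 and 3 labelled siArid3a, against 23.4, 27.8 and 32.0 CPM in control libraries 1, 2 and 3, and the groups overlapped. Its log2 fold change of -0.20 had an SE of 0.13 and an edgeR adjusted p of 0.480.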
